A study of Mus musculus with 39 samples.

Results

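Nuclear genes of the mitochondrial respiratory chain were followed through mouse spermatogenesis in 2 droplet single-cell RNA libraries of whole testis. The group holds every gene whose symbol begins with Ndufa, Ndufb, Ndufc, Ndufs, Ndufv, Sdha, Sdhb, Sdhc, Sdhd, Uqcr, Cox4, Cox5, Cox6, Cox7, Cox8 or Atp5. This rule took 98 of the 32285 genes in the feature table and used no measured value. By role they are 37 subunits of complex I, 4 of complex II, 8 of complex III, 18 of complex IV (Ndufa4 included), 17 of complex V, and 14 assembly factors or related proteins. The control library came from a testis preparation of genotype Kdm6a fl/y; Cre-. The conditional knockout (cKO) library came from Kdm6a fl/y; Ddx4-Cre+. Both genotypes therefore carry the floxed allele of Kdm6a, which lies on the X chromosome and encodes an enzyme that takes methyl groups off lysine 27 of histone H3. Cre is driven by the germ-cell gene Ddx4, so somatic cells of the testis are not its target. The labels give neither the age nor the number of animals per library. Promoters of the same genes were examined in deposited peak lists of sorted cKIT+ spermatogonia of these genotypes, with 2 control and 3 cKO libraries for ATAC-seq, 2 control and 3 cKO libraries for H3K27me3 CUT&Tag, and 1 control library with IgG.

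The respiratory chain passes electrons from NADH (complex I) and succinate (complex II) through complex III to complex IV, cytochrome c oxidase, which reduces oxygen. The proton gradient made on the way drives complex V, the ATP synthase. A few subunits, mostly small ones of complex IV, have a second gene that is used in the testis. Among the complex IV pairs described below, only the somatic gene Cox7b lies on the X chromosome, which is transcriptionally silenced in pachytene spermatocytes. Core subunits of every complex but complex II are also made from mitochondrial DNA.

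Each library held 229882646 (control) or 172368722 (cKO) unique molecular identifiers (UMIs), and 11252 or 8520 barcodes reached 3000 UMIs, with medians of 8410 and 8499. Only 30 of these barcodes occurred in both libraries. Barcodes were put into classes by the share of their UMIs on fixed lists of marker genes that hold no respiratory chain gene. In the control and cKO library this gave 192 and 167 spermatogonia-like cells, 595 and 292 early spermatocyte-like, 2478 and 1936 late spermatocyte-like, 962 and 874 round spermatid-like and 4770 and 3586 elongating spermatid-like cells. There were also 90 and 86 Leydig-like and 130 and 108 Sertoli-like cells, while 2023 and 1458 barcodes fell into no class. A class needed a score at least 1.5 times that of the next list, and some cells lay near that limit. With a ratio under 1.8 were 42 of the 192 and 15 of the 167 spermatogonia, 99 of 595 and 54 of 292 early spermatocytes, 268 of 2478 and 227 of 1936 late spermatocytes, 291 of 962 and 274 of 874 round spermatids, and 291 of 4770 and 129 of 3586 elongating spermatids. The suffix "-like" is left out below. Levels are CPM, the UMIs of a gene scaled to a class total of 1000000 UMIs. Kdm6a itself was at 19.2 CPM in control and 8.65 CPM in cKO spermatogonia and at 33.7 and 3.07 CPM in early spermatocytes, although 3′ tags read the end of the transcript and do not show the deletion itself. Free RNA, the summed profile of barcodes with 1 to 100 UMIs, held 41015 and 34609 CPM of 4 protamine and transition protein genes, and Leydig cells, which do not make them, carried 30.5% and 22.6% of that level. With 1 library per genotype no difference between genotypes can be tested. Intervals below are exact 95% Poisson intervals (exact binomial for shares), and they cover counting error only.

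Together the 98 genes gave the highest share of germ-cell RNA in late spermatocytes and the lowest in elongating spermatids. In spermatogonia their UMIs summed to 25616 CPM (25352 to 25882) in the control and 30161 CPM (29828 to 30496) in the cKO library. Early spermatocytes held 23850 and 30371 CPM, and late spermatocytes 30502 (30454 to 30550) and 34455 (34394 to 34516) CPM. Round spermatids followed at 19467 and 22027 CPM. In elongating spermatids the sum was 9201 (9170 to 9231) and 9436 (9399 to 9473) CPM, so the order of the germ-cell classes at the top and at the bottom was the same in both libraries. Leydig cells, which make steroid hormones in part inside mitochondria, stood at 34232 and 39076 CPM, above each germ-cell class of their own library. Sertoli cells, the nurse cells of the tubule, stood at 19763 and 20703 CPM, close to the 21221 and 21857 CPM of free RNA, and their protamine and transition protein level was 46.4% and 61.0% of that of free RNA. Late spermatocytes were also the class with most of these UMIs per cell, 620 and 630. Spermatogonia had 188 in both libraries and elongating spermatids 74.7 and 68.7. Counts per cell are not scaled for depth. Median depth was 18730 and 15790 UMIs in late spermatocytes, 6690 and 5683 in spermatogonia, and 6976 and 6238 in elongating spermatids.

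A level in CPM is a share of the RNA of a class, and elongating spermatids hold 200800 CPM (control) and 220240 CPM (cKO) of the 4 protamine and transition protein genes. The median of all genes passing the level minimum changed from spermatogonia by -0.37 and -0.30 (log2, control and cKO) in late spermatocytes, by -0.71 and -0.67 in round spermatids and by -2.03 and -2.15 in elongating spermatids. In CPM the summed level of the 98 genes changed from spermatogonia by -1.48 and -1.68 (log2) in elongating spermatids, but by 0.42 and 0.32 when the classes were scaled by the median ratio over the 11315 genes with a UMI in every class and library. The change to late spermatocytes was 0.25 and 0.19 in CPM and 0.57 and 0.50 with median-ratio scaling, higher on both scales.

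**Figure D1:**
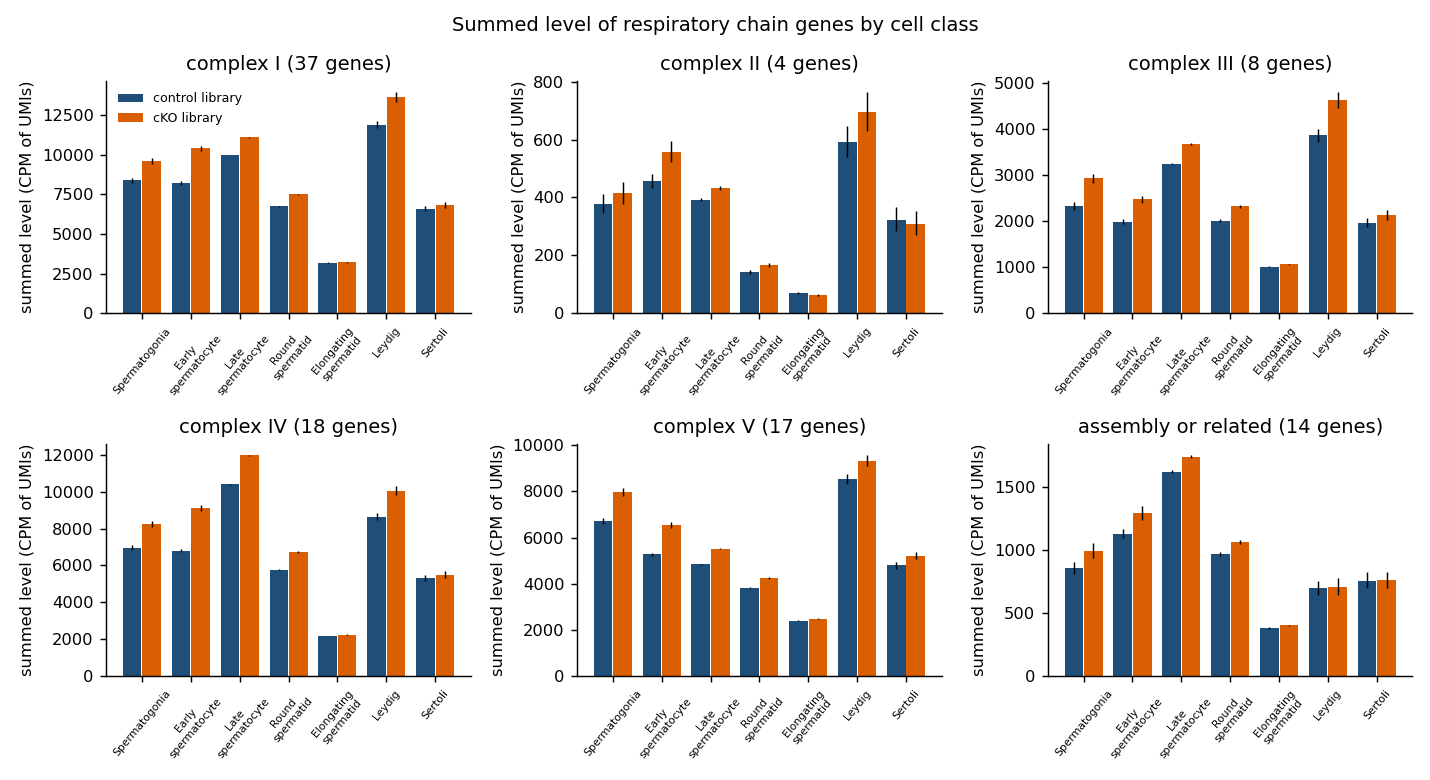
Bars show the summed level of the genes of each complex in CPM of UMIs, by cell class, for the control (blue) and cKO (orange) library, with exact 95% Poisson intervals from counting alone. Complex IV peaks in late spermatocytes at 10405 and 11972 CPM, while complex V is highest among germ cells in spermatogonia at 6721 and 7979 CPM.

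The summed levels of the complexes did not share one course, and a sum follows its most abundant genes. The complex IV sum went from 6958 and 8235 CPM in spermatogonia to 10405 and 11972 CPM in late spermatocytes. Its median gene did not rise, with changes of 0.0014 and -0.05 (log2) among 14 passing a minimum of 20 CPM. Of these, 3 (21.4%) were at least 2-fold higher, the testis isoforms Cox8c, Cox7b2 and Cox6b2, and 4 (28.6%) were lower. Of all genes 23.9% were higher and 34.0% lower, so neither count stands out. The complex III sum went from 2319 and 2920 to 3243 and 3676 CPM, with medians of 0.77 and 0.65 over 8 genes. Complex I moved less, from 8390 and 9622 to 9998 and 11123 CPM. The ATP synthase went the other way, from 6721 and 7979 to 4847 and 5511 CPM. Complex II, succinate dehydrogenase, was nearly level at 377 and 414 against 393 and 433 CPM.

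Among the largest changes were exchanges between paired subunit genes of cytochrome c oxidase. Cox8a, the gene of the widely used isoform of subunit 8, stood at 433 CPM (400 to 469) in control and 574 CPM (528 to 621) in cKO spermatogonia. It was at 35.2 and 42.9 CPM in early spermatocytes and at 15.0 (13.9 to 16.1) and 17.6 (16.2 to 19.0) CPM in late spermatocytes. Its testis partner Cox8c rose from 319 (290 to 350) and 399 (361 to 439) CPM in spermatogonia to 660 and 923 CPM in early and 2662 and 3096 CPM in late spermatocytes. Cox8c then declined to 898 and 1113 CPM in round and to 357 and 388 CPM in elongating spermatids, and it was the most abundant complex IV gene over all cells. Among the UMIs of the pair, Cox8c took 94.9% (94.0 to 95.8) and 95.6% (94.4 to 96.5) in early spermatocytes. In late spermatocytes the share was 99.4% in both libraries.

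Subunit 7B followed the same course, with the added feature that its somatic gene Cox7b is X-linked (chromosome X, 106015700 to 106022450 in GRCm38.p6). Cox7b fell from 51.9 (40.6 to 65.2) and 70.1 (55.0 to 88.2) CPM in spermatogonia to 5.11 and 1.23 CPM in early spermatocytes, where the cKO value rests on 2 UMIs. It was at 0.66 and 0.54 CPM in late spermatocytes. The autosomal Cox7b2 (chromosome 5, 71442823 to 71548205) rose from 156 and 203 CPM to 509 and 710 CPM in early and to 882 and 1020 CPM in late spermatocytes. Its share of the pair reached 99.0% (98.4 to 99.4) and 99.8% (99.4 to 100.0) in early spermatocytes.

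Subunit 6B was exchanged less completely. Cox6b1 went from 330 (300 to 361) and 403 (365 to 443) CPM in spermatogonia to 83.9 and 109 CPM in early spermatocytes and 30.2 and 34.9 CPM in late ones. Cox6b2 rose from 186 and 173 CPM through 524 and 820 CPM to 1076 and 1276 CPM over the same classes. The Cox6b2 share was 86.2% and 88.3% in early and 97.3% in late spermatocytes of both libraries.

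Ndufa4, first counted to complex I and now known as a subunit of cytochrome c oxidase, fell as steeply. Its level was 384 (352 to 417) and 469 (428 to 512) CPM in spermatogonia, 110 and 142 CPM in early and 13.6 and 16.3 CPM in late spermatocytes. The related gene Ndufa4l2 rose from 18.5 and 16.3 CPM to 97.3 and 118 CPM in late spermatocytes, so that the summed level of the 2 genes still fell. Here the rise came later than for the testis isoforms above. Ndufa4l2 was at 27.4 and 21.5 CPM in early spermatocytes, with intervals of 22.0 to 33.6 and 15.0 to 29.9. Cox7b, Cox8a and Ndufa4 had the 3 largest falls to late spermatocytes of the 91 genes passing a minimum of 20 CPM in either class. In these cells all 3 were below their level in free RNA, which was 31.9 and 38.1 CPM for Cox7b, 108 and 125 CPM for Cox8a and 77.7 and 91.8 CPM for Ndufa4.

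**Figure D2:**
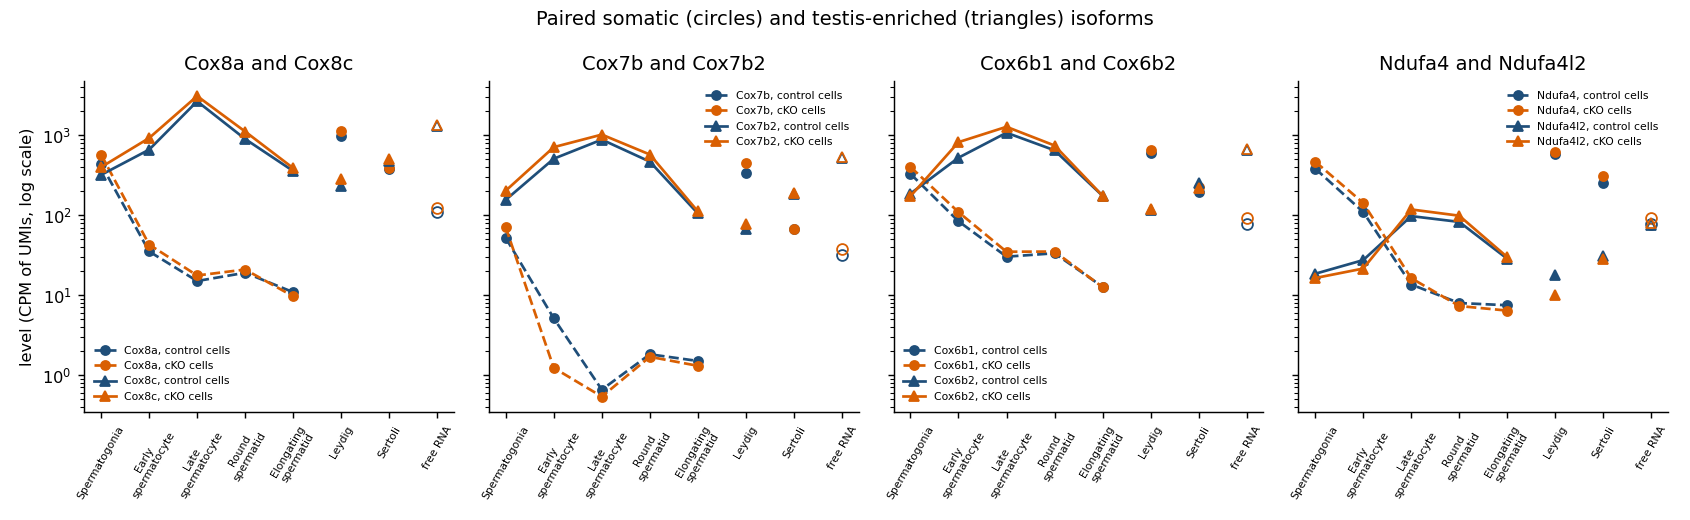
Points give the level in CPM (log axis) of the somatic gene (circles, dashed) and its testis-enriched partner (triangles, solid) in each cell class. For Ndufa4 the triangles show the related gene Ndufa4l2. Colours give the control (blue) and cKO (orange) library, with open symbols for free RNA. Cox8a, Cox7b and Cox6b1 drop from spermatogonia to late spermatocytes while Cox8c, Cox7b2 and Cox6b2 climb in both libraries. The libraries lie farthest apart for Cox7b in early spermatocytes, at 5.11 and 1.23 CPM, and Cox6b2 is at 524 and 820 CPM there.

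Free RNA could give much of what was counted for the testis isoforms in the spermatogonia class. This class also carried early spermatocyte markers, at a median of 25.8 and 21.0 UMIs per 10000, beside 20.05 and 23.0 for its own markers, while Leydig cells held 2.18 and 2.04. It is thus not purely premeiotic by these markers, and their part in the isoform levels was not tested. In spermatogonia Cox8c held 42.4% and 41.0% of its pair, Cox7b2 75% and 74.3%, and Cox6b2 36.1% and 30.1%. Leydig cells, a somatic type, held 229 and 287 CPM of Cox8c and free RNA 1306 and 1356 CPM. When free RNA was subtracted from each class at the largest share that the protamine genes allow, Cox8c was left at 0 and 14.6 CPM in spermatogonia, Cox7b2 at 0 and 68.0 CPM and Cox6b2 at 0 in both libraries. In Leydig and Sertoli cells all 3 were left at 0. In early spermatocytes the same step left 294 and 732 CPM of Cox8c, 479 and 750 CPM of Cox7b2 and 435 and 841 CPM of Cox6b2. After this step all 3 were above 0 in early spermatocytes of both libraries, while in spermatogonia only Cox7b2 and Cox8c of the cKO library were.

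Shares of cells with a UMI were compared at equal depth. After each barcode was thinned to 3000 UMIs, Cox8a was found in 68.8% (61.7 to 75.2) of control and 77.8% (70.8 to 83.9) of cKO spermatogonia. It was found in 11.1% and 12.7% of early and 5.81% and 6.35% of late spermatocytes (24.7% and 25.1% of late spermatocytes without thinning). Cox8c was found in 63.5% and 67.1% of spermatogonia, below the shares for Cox8a, though the intervals overlapped. It was found in 81.2% and 83.2% of early and 99.5% and 99.6% of late spermatocytes. In Leydig cells the shares were 48.9% and 45.4% and in Sertoli cells 76.9% and 72.2%. Both somatic types should lack the gene, and the share in spermatogonia lay above that in Leydig and below that in Sertoli cells. Intervals for spermatogonia and Leydig cells overlapped in the control (56.31 to 70.35 and 38.2 to 59.65) but not in the cKO library (59.38 to 74.13 and 34.58 to 56.45). How much of the share in spermatogonia is background was not tested. Median depth was 18730 and 15790 UMIs in late spermatocytes, 8210 and 6664 in Leydig and 4235 and 6800 in Sertoli cells.

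Some complex IV isoforms known mainly from lung or from heart and skeletal muscle were nearly absent from germ cells. Cox4i2 had 0 or 1 UMI in each germ-cell class, whereas its partner Cox4i1 stood at 1310 and 1536 CPM in spermatogonia and 1400 and 1536 CPM in late spermatocytes. Cox8b had 0 UMIs in all 5 germ-cell classes of both libraries, and Cox6a2 had at most 5 UMIs in any of them. Cox7a1 was at 6.39 and 8.65 CPM in spermatogonia, on 9 UMIs in each library, and was at 64.2 (47.8 to 84.4) and 90.5 (68.0 to 118) CPM in Leydig cells.

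Promoter sequences of the exchanged genes are shown so that what lies before the start of the somatic and testis copies can be compared, for the genes with a window. Each window runs from 250 bases before to 50 bases after the RefSeq start site on the gene's own strand in GRCm38.p6, the build equivalent to mm10. Capitals mark a match to the ETS-family core CCGGAAGT or its reverse complement ACTTCCGG (Cox8a) and to the NRF1 palindrome, GCGCA and GCGC with any base between (Atp5g2). The windows are chr19:7217567-7217866 on the minus strand for Cox8a, chrX:106015450-106015749 on the plus strand for Cox7b and chr5:71548156-71548455 on the minus strand for Cox7b2. For Cox6b1 the window is chr7:30626065-30626364 and for Cox6b2 chr7:4753045-4753344, both on the minus strand. That of Atp5g2, a gene of the membrane ring of ATP synthase described further on, is chr15:102670998-102671297 on the minus strand.
Cox8a promoter: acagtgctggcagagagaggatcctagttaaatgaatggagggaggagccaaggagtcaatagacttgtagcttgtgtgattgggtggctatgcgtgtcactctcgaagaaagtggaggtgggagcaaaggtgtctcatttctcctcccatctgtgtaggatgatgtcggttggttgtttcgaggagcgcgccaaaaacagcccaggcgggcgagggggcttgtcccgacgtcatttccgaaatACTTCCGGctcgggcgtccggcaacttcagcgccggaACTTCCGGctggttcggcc
Cox7b promoter: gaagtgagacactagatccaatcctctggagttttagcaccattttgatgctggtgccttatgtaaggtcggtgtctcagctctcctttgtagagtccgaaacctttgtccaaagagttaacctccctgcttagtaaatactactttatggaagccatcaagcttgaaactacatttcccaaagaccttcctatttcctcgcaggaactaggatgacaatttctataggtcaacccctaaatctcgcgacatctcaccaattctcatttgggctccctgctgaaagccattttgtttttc
Cox7b2 promoter: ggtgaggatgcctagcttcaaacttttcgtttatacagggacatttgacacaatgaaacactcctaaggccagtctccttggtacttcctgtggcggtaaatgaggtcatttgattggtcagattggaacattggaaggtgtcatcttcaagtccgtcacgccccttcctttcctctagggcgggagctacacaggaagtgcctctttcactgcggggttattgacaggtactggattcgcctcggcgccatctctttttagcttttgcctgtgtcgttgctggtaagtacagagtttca
Cox6b1 promoter: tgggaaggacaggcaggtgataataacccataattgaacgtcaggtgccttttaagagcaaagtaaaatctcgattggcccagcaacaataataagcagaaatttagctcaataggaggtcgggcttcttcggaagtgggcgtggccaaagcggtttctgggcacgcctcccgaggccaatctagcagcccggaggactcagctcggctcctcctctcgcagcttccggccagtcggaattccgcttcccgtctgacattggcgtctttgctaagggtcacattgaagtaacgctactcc
Cox6b2 promoter: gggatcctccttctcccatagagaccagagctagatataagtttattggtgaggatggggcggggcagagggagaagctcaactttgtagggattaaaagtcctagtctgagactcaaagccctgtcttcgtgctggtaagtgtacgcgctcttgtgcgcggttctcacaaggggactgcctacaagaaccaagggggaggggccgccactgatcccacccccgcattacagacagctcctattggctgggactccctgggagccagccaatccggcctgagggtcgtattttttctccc
Atp5g2 promoter: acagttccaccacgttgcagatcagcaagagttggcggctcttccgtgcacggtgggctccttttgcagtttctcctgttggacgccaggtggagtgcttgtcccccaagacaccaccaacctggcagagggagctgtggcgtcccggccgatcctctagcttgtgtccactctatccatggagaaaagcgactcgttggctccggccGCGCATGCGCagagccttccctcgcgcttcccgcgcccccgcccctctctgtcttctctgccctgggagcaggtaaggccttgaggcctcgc
The Cox8a window holds the ETS core at positions 245 and 282, counted from 1 at the window's 5′ end, and 19 CpG dinucleotides. No match to the NRF1, ETS, CRE or YY1 motif searched was found in the Cox7b, Cox7b2, Cox6b1 or Cox6b2 window. Cox7b has 5 CpG, Cox7b2 and Cox6b2 have 10 each, and Cox6b1 has 17, against a median of 20 in the windows of the respiratory chain genes.

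For most of the 98 genes the change up to late spermatocytes stayed under 2-fold. A gene was counted as higher or lower when its CPM changed at least 2-fold in the same direction in both libraries, among genes with at least 20 CPM in either class in both libraries. From spermatogonia to early spermatocytes, 6 of the 98 genes were higher and 11 lower, with 91 passing the minimum. Of all 7637 genes passing it, 10.6% were higher and 15.8% lower. The 11 lower became 17 with a lead ratio of 3 and 7 with at least 5000 UMIs per barcode, where 16.1% and 17.6% of all genes were lower. To late spermatocytes 11 were higher and 15 lower of 91 passing, against 23.9% and 34.0% of all genes. The median change of the members in late spermatocytes was 0.06 in both libraries, while that of all genes was -0.37 and -0.30. Between early and late spermatocytes 4 members were higher (Cox8c, Uqcrq, Ndufaf3 and Ndufa4l2) and 11 lower of 90 passing, where 19.6% of all genes were higher and 28.4% lower. With median-ratio scaling 19 members were higher and 12 lower in late spermatocytes, where 30.9% of all genes were higher and 26.5% lower.

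In round spermatids 9 were higher and 39 lower than in spermatogonia, of 90 passing, where 30.4% of all genes were higher and 44.9% lower. From round to elongating spermatids none of 76 was higher and 48 were lower, where 8.19% of all genes were higher and 48.5% lower. In elongating spermatids none was higher than in spermatogonia and 68 were lower, where 18.9% of all genes were higher and 61.7% lower. With median-ratio scaling the split in round spermatids was 22 higher and 17 lower, where 47.4% of all genes were higher and 29.2% lower. In elongating spermatids it was 17 higher and 23 lower, where 46.5% and 29.1% of all genes were, so the counts after meiosis depend on the scale. In CPM, median changes of the members were -0.72 in both libraries in round and -2.07 and -2.24 in elongating spermatids, near the all-gene medians given above.

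**Figure D3:**
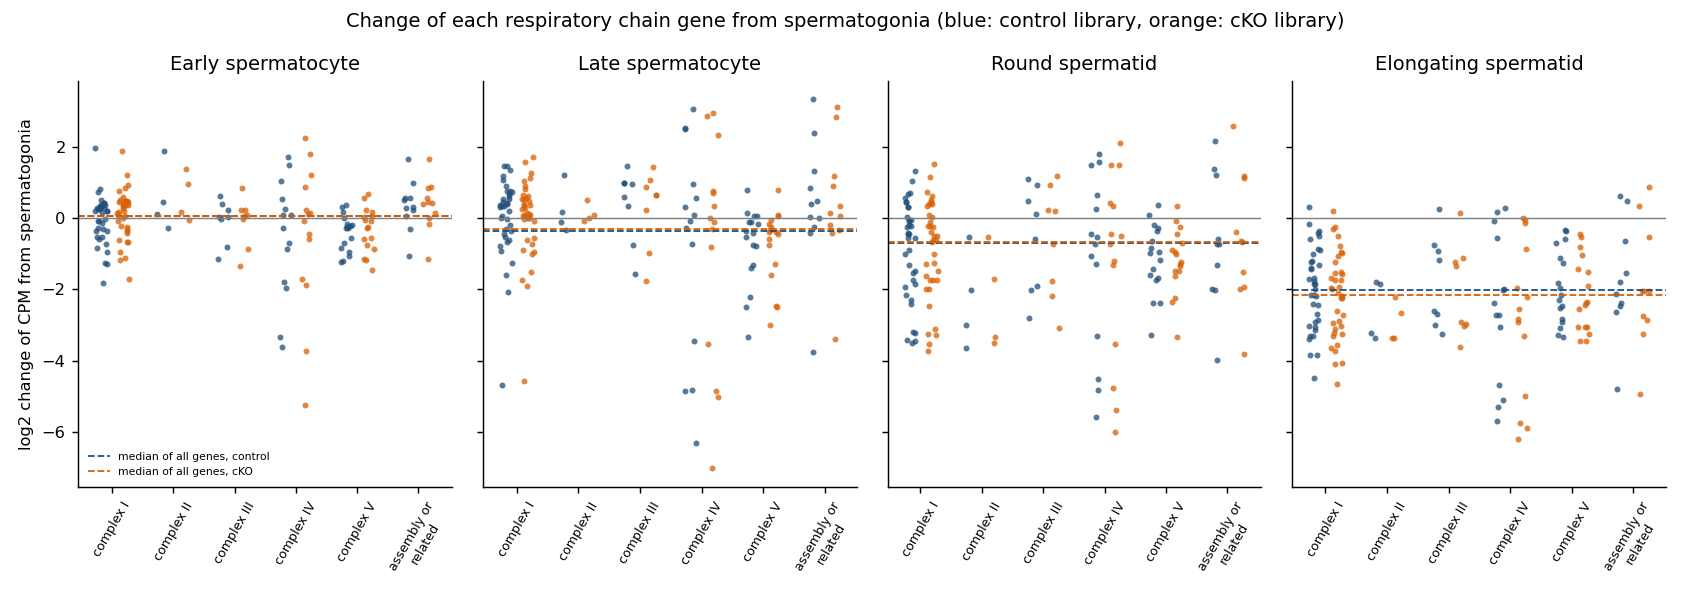
Each point is the log2 change of 1 gene's CPM from spermatogonia in the control (blue) or cKO (orange) library, by role, for genes passing the level minimum; dashed lines are the medians of all genes. Most late-spermatocyte points lie near 0, with complex IV spread from -7.03 to 3.06, and the elongating-spermatid points centre on the dashed lines near -2.03 and -2.15.

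Among the 37 genes of complex I, the NADH dehydrogenase, 4 were higher and 4 lower in late spermatocytes (10.8% each of 37 passing, where 23.9% of all genes were higher and 34.0% lower). Ndufc1, an accessory subunit and the most abundant complex I gene over all cells, went from 308 and 326 CPM in spermatogonia to 857 (849 to 865) and 976 (966 to 987) CPM. Ndufa12, another accessory subunit that no rule for named genes picked, went from 190 and 172 to 525 and 564 CPM. Ndufa7, next in abundance, was at 500 and 547 CPM in spermatogonia and nearly the same, 501 and 569 CPM, in late spermatocytes. Ndufa13, a membrane-arm subunit, was unusual in its late course. It went from 464 and 543 CPM in spermatogonia to 247 and 272 CPM in late spermatocytes and stood at 581 (573 to 588) and 621 (612 to 631) CPM in elongating spermatids, its highest level in any germ-cell class. It was among the 3 members with the highest value in elongating spermatids relative to spermatogonia, at 0.32 and 0.20 (log2), together with Ndufaf3 and Ndufa4l2.

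Complex II is the only complex here with no subunit from mitochondrial DNA. None of its 4 genes was counted as changed in late spermatocytes, 3 were lower in round spermatids and all 4 in elongating spermatids, where 44.9% and 61.7% of all genes were lower. Sdhb, the iron-sulfur subunit, was at 143 and 168 CPM in spermatogonia, 160 and 179 CPM in late spermatocytes and 99.4 and 116 CPM in round spermatids. Sdha, the flavoprotein that oxidises succinate, was at 138 and 132, 110 and 123, and 34.3 and 40.2 CPM in the same classes. The membrane anchors dropped further. Sdhd rose from 24.2 (16.7 to 33.8) and 38.4 (27.5 to 52.3) CPM in spermatogonia to 88.8 and 101 CPM in early spermatocytes, and was at 3.00 and 3.78 CPM in round spermatids. Sdhc, the other anchor, named here after its values were seen, was at 67.6 and 76.0 CPM in late spermatocytes and 5.82 and 6.62 CPM in round spermatids.

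In complex III, which hands electrons to cytochrome c, 1 of 8 genes was higher and 1 lower in late spermatocytes, against 23.9% and 34.0% of all genes. Uqcrq, a small subunit near the cytochrome b core, rose from 487 (452 to 525) and 551 (506 to 598) CPM to 1338 and 1490 CPM. It still stood at 578 and 610 CPM in elongating spermatids, where the complex III sum was 1009 and 1058 CPM. Uqcr10 went from 179 and 259 CPM in spermatogonia to 348 and 406 CPM, short of 2-fold in both libraries, and was at 897 and 1058 CPM in Leydig cells. Uqcr11 was the gene that fell, with log2 changes of -1.57 and -1.75.

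In complex V, no gene was higher in late spermatocytes, where 23.9% of all genes were, and 5 of 17 (29.4%) were lower, a share near the 34.0% of all genes. The 5 were Atp5l, Atp5g1, Atp5mpl, Atp5g2 and Atp5md. The most abundant, Atp5e (epsilon subunit) and Atp5b (catalytic beta subunit), were not among them. Atp5e stood at 591 and 716 CPM in spermatogonia and 551 and 639 CPM in late spermatocytes, and Atp5b at 510 and 604 and then 530 and 586 CPM. Some of those that fell were higher again after meiosis. Atp5mpl, a small membrane protein of the synthase, was at 480 (445 to 518) and 563 (518 to 611) CPM in spermatogonia and 84.4 (81.9 to 87.0) and 100 (97.0 to 104) CPM in late spermatocytes. In round spermatids it was at 509 and 538 CPM and in elongating spermatids at 372 and 390 CPM. Atp5md, another small membrane protein, went from 414 and 614 CPM to 89.0 and 111 CPM and back to 268 and 303 CPM in round spermatids.

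Atp5mpl and Atp5md were the only members higher in round spermatids than in late spermatocytes (2 of 85 passing), where 33 were lower. Of all genes passing, 28.7% were higher and 37.5% lower. The c ring of the synthase, whose identical subunits come from several genes, showed an uneven course. Atp5g2 went from 286 (259 to 316) and 320 (286 to 356) CPM to 28.1 and 40.0 CPM in late spermatocytes and was at 29.6 and 32.0 CPM in round spermatids. Atp5g1 was at 408 and 554, 165 and 184, and 319 and 339 CPM in the same classes. Atp5mpl, Atp5g1 and Atp5g2 were picked for description after their values were seen.

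Of the 14 assembly factors and related genes, 11 passed the minimum, of which 3 (27.3%) were higher in late spermatocytes and 1 was lower, where 23.9% and 34.0% of all genes were. Ndufaf3, an assembly factor of complex I, had the largest rise of the 91 genes passing, from 65.4 (52.7 to 80.2) and 79.7 (63.5 to 98.9) CPM in spermatogonia through 208 and 255 CPM to 659 and 698 CPM in late spermatocytes. It was at 151 and 180 CPM in round spermatids. Ndufaf4, another complex I assembly factor, was the gene that fell, with log2 changes of -3.76 and -3.40.

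Ndufa1, Ndufb11 and Cox7b lie on the X chromosome, and all 3 were low from late spermatocytes on. Ndufa1, an accessory subunit needed to assemble complex I (chromosome X, 37187588 to 37191238), differed from the others in first rising. Its level was 104 (88.2 to 123) and 126 (105 to 149) CPM in spermatogonia and 413 (391 to 435) and 466 (434 to 501) CPM in early spermatocytes. It then stood at 25.0 and 33.7 CPM in late spermatocytes and 11.1 and 13.3 CPM in round spermatids. Ndufb11 (chromosome X, 20615326 to 20617619), a subunit of the membrane arm, was at 73.9 and 78.8, 44.5 and 49.1, 2.88 and 3.33, and 6.95 and 8.04 CPM in these classes. All 3 X-linked members were below their free RNA level, 42.6 and 50.5 CPM for Ndufa1 and 41.8 and 48.2 CPM for Ndufb11, in late spermatocytes and in both spermatid classes. In Leydig cells they stood at 345 and 431, 435 and 538, and, for Cox7b, 337 and 444 CPM.

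The 998 genes matched to the X chromosome, summed with no minimum, had their lowest sum in late spermatocytes. Their UMIs came to 17167 (16951 to 17385) and 16326 (16082 to 16574) CPM in spermatogonia, 10745 and 6949 CPM in early spermatocytes, and 2029 (2017 to 2042) and 1928 (1914 to 1943) CPM in late spermatocytes. In round and elongating spermatids the X-linked sum was 14804 and 14007 and then 13585 and 13039 CPM. From late spermatocytes to round spermatids Ndufa1 changed by -1.16 and -1.34 (log2), while Ndufb11 was higher by 1.27 in both libraries and Cox7b by 1.47 and 1.65, at levels under the minimum. Of 118 X-linked genes passing the minimum in this step 117 were higher in round spermatids and 1, Ndufa1, was lower, although a gene that is low in late spermatocytes passes only where it is high in round spermatids. In round spermatids all 3 members were still lower than in spermatogonia, as were 55.3% of the 262 X-linked genes passing the minimum. Ndufa1 was higher in early spermatocytes than in spermatogonia, where the X-linked sum was lower.

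**Figure D4:**
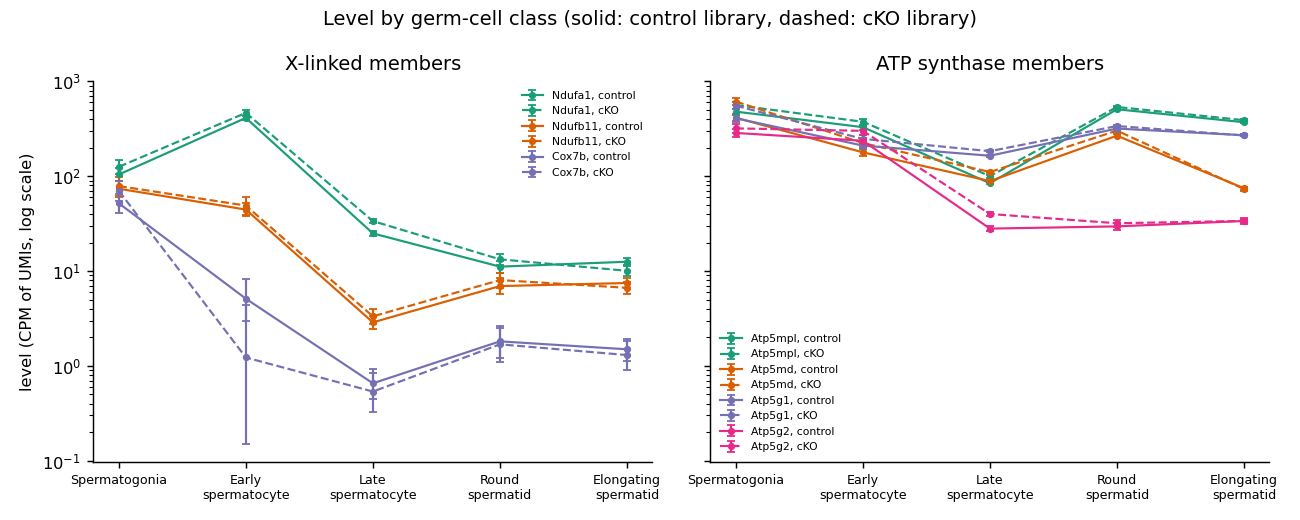
Level in CPM (log axis) by germ-cell class of the X-linked members (left) and of 4 ATP synthase members (right), with exact 95% Poisson intervals, solid for the control and dashed for the cKO library. Ndufa1 peaks in early spermatocytes at 413 and 466 CPM before its fall, and Atp5mpl dips to 84.4 and 100 CPM in late spermatocytes and is at 509 and 538 CPM in round spermatids.

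The RNAs made from mitochondrial DNA took another course than the nuclear genes. The 13 protein-coding mitochondrial genes summed to 56764 and 69983 CPM in spermatogonia, 50099 and 58188 CPM in early and 19427 and 21378 CPM in late spermatocytes, and to 2513 and 2699 CPM in round spermatids. None was counted as changed in early spermatocytes, and all 13 were lower in late spermatocytes, where 34.0% of all genes were, with medians of -1.70 and -1.77 (log2). In round and elongating spermatids all 13 were lower as well, where 44.9% and 61.7% of all genes were, with medians of -4.57 and -4.72 and of -3.85 and -4.17. Their medians lay below the median of all genes in each of these classes, so they were lower on both scales. Cyc1, a nuclear subunit of complex III outside the naming rule, went from 208 and 275 CPM to 56.3 and 73.6 CPM in late and 10.9 and 12.7 CPM in round spermatids.

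Around the chain, a second pair of genes changed places. Cycs, the somatic cytochrome c, was at 113 and 135 CPM in spermatogonia and at 7.09 and 7.06 CPM in late spermatocytes. Cyct, the testis cytochrome c, went from 55.4 and 61.5 CPM through 202 and 261 to 340 and 379 CPM, when it made up 97.96% and 98.17% of the pair. Of 32 further assembly factors, 3 were higher and 7 lower in late spermatocytes (24 passing). Of 13 enzymes of the tricarboxylic acid cycle, all passing, 4 were higher and 6 lower. Of 11 regulators of mitochondrial biogenesis none was higher and 6 were lower (8 passing). Of all genes 23.9% were higher and 34.0% lower.

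Between genotypes, the nuclear respiratory chain genes differed by small amounts, mostly in 1 direction. The median of the members was higher in the cKO library in each class, by 0.23 (log2) in spermatogonia, 0.35 in early spermatocytes, 0.17 in late spermatocytes and 0.18 in round spermatids. It was 0.02 higher in elongating spermatids, but 0.18 with median-ratio scaling and 0.59 with free RNA subtracted at the largest share. In round spermatids that subtraction gave 0.31. The share subtracted from both spermatid classes was 30.5% in the control and 22.6% in the cKO library. This inequality itself shifts the ratio, so neither value can be read as a genotype difference. On the CPM scale the median of all genes passing was -0.10, -0.07, -0.0018, 0.05 and -0.06 in the same order. Leydig cells, which Ddx4-Cre does not target, gave 0.21, with all genes at -0.06, and Sertoli cells gave 0.08, with all genes at -0.04. Cytosolic ribosomal protein genes, another set of short and abundant RNAs, had medians of 0.29, 0.28, 0.15, 0.14 and 0.05 in the 5 germ-cell classes. Their median was 0.17 in Leydig cells and 0.17 in Sertoli cells. Whether animal, preparation or genotype sets this difference cannot be told apart with 1 library each.

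**Figure D5:**
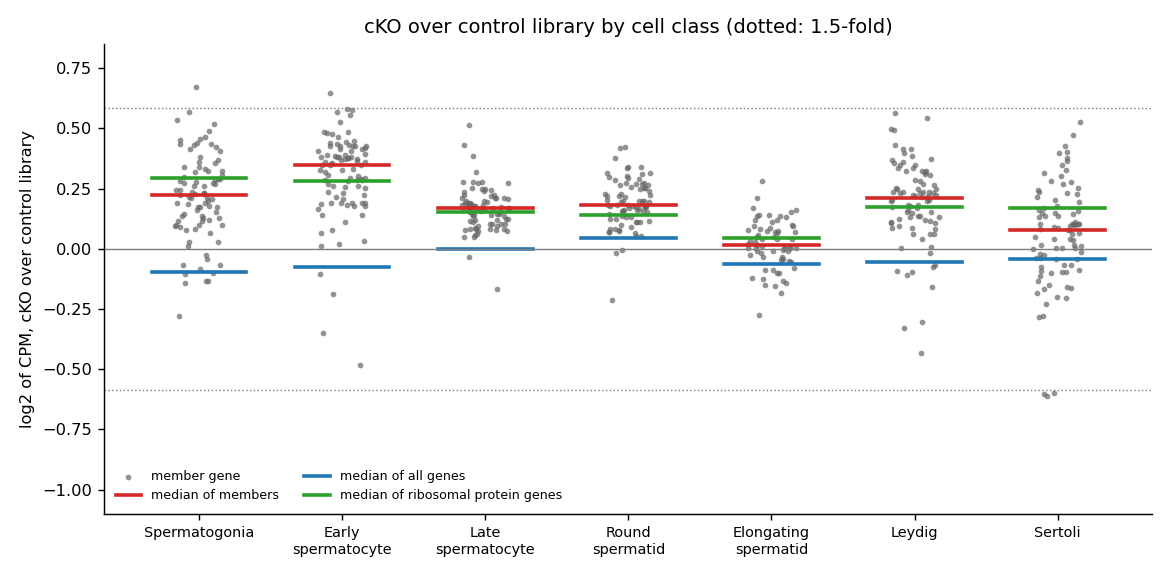
Grey points give the log2 ratio of CPM in the cKO over the control library for each respiratory chain gene passing the minimum, by class, with lines for the medians of the members (red), all genes (blue) and cytosolic ribosomal protein genes (green) and dotted lines at 1.5-fold. The red line lies above the blue one in every class, including Leydig cells, and nearly all points lie inside the dotted lines.

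On the CPM scale hardly any single gene passed 1.5-fold. In spermatogonia 1 of 89 members passing the minimum was at least 1.5-fold higher and none lower, where 2.65% of all genes were higher and 12.1% lower. The gene was Sdhd, on 34 and 40 UMIs, with a log2 ratio of 0.67 and an interval from -0.03 to 1.37. With free RNA subtracted at the largest share 9 of 85 were higher in spermatogonia, where 4.50% of all genes were, and with median-ratio scaling 4 of 88, where 4.19% were. In early spermatocytes 1 of 92 was higher and none lower, where 2.25% and 12.9% of all genes were. That gene was Cox6b2, at 524 (499 to 549) CPM in the control and 820 (777 to 865) CPM in the cKO library, a log2 ratio of 0.65 (0.54 to 0.75). In late spermatocytes, with 54197 and 45197 UMIs, its ratio was 0.25 (0.23 to 0.26). The early spermatocyte class differed between libraries in other genes too. Cox8c and Cox7b2 had log2 ratios of 0.48 each there, and all X-linked genes summed to 10745 CPM in the control and 6949 CPM in the cKO library. The part of the make-up of the class in the Cox6b2 difference was not tested. The count in early spermatocytes was unstable: it was 0 with at least 5000 UMIs per barcode, 5 with an upper limit of 3 times the median UMIs, 9 with a lead ratio of 3 between marker classes, and 19 with free RNA subtracted at the largest share, where 2.15%, 3.63%, 5.59% and 6.28% of all genes were higher. The subtracted share was 32.7% in control and 28.6% in cKO spermatogonia, and 35.3% and 27.3% in early spermatocytes. This inequality itself shifts the ratio between libraries.

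In late spermatocytes none of 85 members passed 1.5-fold in either direction, where 0.15% of all genes were higher and 2.14% lower. None of 80 did in round spermatids, where 0.434% and 4.27% of all genes did, and none of 67 in elongating spermatids, where 0.0518% and 4.25% did. With free RNA subtracted at the largest share, 12 of 73 were higher in round and 21 of 41 in elongating spermatids, where 4.96% and 4.70% of all genes were. More was taken off the control (30.5%) than the cKO library (22.6%), which itself shifts the ratio. These counts can therefore not be read as a genotype difference. A lead ratio of 3 gave 6 of 60 in round spermatids, where 4.06% of all genes were higher. None of 87 passed in Leydig cells, where 4.02% and 12.8% of all genes did. In Sertoli cells none was higher and 3 of 88 were lower (Ndufs1, Sdhc and Ndufaf4, on 23 to 49 UMIs), where 5.44% of all genes were higher and 9.91% lower. No member passed in more than 1 germ-cell class.

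Over all cells none of 85 members passed 1.5-fold, where 0.311% of all genes were higher and 2.31% lower, and the ratios ran from -0.11 to 0.36. The highest were those of Atp5k (subunit e of the ATP synthase) at 0.36 (0.34 to 0.38), Ndufb1-ps at 0.33 (0.31 to 0.35) and Atp5md at 0.30 (0.27 to 0.33). Atp5k was at 492 and 635 CPM in spermatogonia, 302 and 435 CPM in early and 368 and 482 CPM in late spermatocytes, and at 402 and 520 CPM in Leydig cells. The cKO value was thus the higher in germ cells and in Leydig cells alike. The lowest were Sdhd at -0.11 (-0.18 to -0.04), Ndufa13 at 0.01 (-0.01 to 0.03) and Ndufa1 at 0.02 (-0.04 to 0.08).

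In sorted cKIT+ spermatogonia, most promoters of the group were accessible. At least 1 promoter window was matched for 81 of the 98 genes (86 windows in all) and none was for 17, Cox8c, Ndufa4l2 and Cox4i1 among them. An ATAC-seq peak covered a base of a window in all 5 libraries for 60 of the 81 (74.1%), and in at least 1 library for 77 (95.1%). Among all 27025 genes with a window the shares were 23.7% and 45.7%. By library, 75 and 77 of the 81 genes had a covered window in the control lists and 61, 69 and 77 in the cKO lists. Of all genes 33.1% and 40.8% had one in the control lists and 25.6%, 31.2% and 43.6% in the cKO lists, so the lists themselves differ in how many promoters they cover. The genes with no window covered in any list were Atp5g1, Cox7b, Cox8b and Ndufa6.

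H3K27me3, the mark that Kdm6a removes, was not called at any of these promoters. In none of the 5 lists did a region cover a window of any of the 81 genes, whereas 15.8% of all genes had a covered window in at least 1 list, and by list 9.82% and 12.6% (control) and 5.37%, 7.44% and 11.4% (cKO). With IgG the numbers were 0 of 81 and 0.281%.

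The promoters of the exchanged pairs and of Ndufa4 were not alike in these spermatogonia. Cox8a and Ndufa4 had a peak in all 5 lists, with the authors' fold enrichment between 5.63 and 7.09 for Cox8a and between 6.23 and 9.13 for Ndufa4. Cox6b2 also had a peak in all 5, at 3.91 to 5.48, although its RNA stood no higher than free RNA could give in spermatogonia. Cox7b2 had one in 4 lists (1 of 2 control and 3 of 3 cKO), at 3.49 to 6.52. Cox6b1 had one in 3 lists (2 control and 1 cKO), at 3.15 to 7.52, and Cox7b in none. Cox7b RNA was nevertheless left at 58.7 and 79.4 CPM in spermatogonia after free RNA was subtracted at the largest share. Whether its window holds the start site used in these cells was not tested.

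Sequence of the windows was searched on both strands for 4 motifs. The NRF1 palindrome given above, the site of a known regulator of respiratory genes, occurred in 21 of the 81 members' promoters (25.9%) and in 5.19% of all genes. Among genes with a peak in all 5 ATAC lists the shares were 25.0% of 60 members and 15.4% of 6418 genes. The YY1 core AAGATGGC (reverse complement GCCATCTT) was in 13.6% of members and 3.19% of all genes, and in 10.0% and 6.72% of those with a peak in all 5 lists. The ETS core was in 6.17% and 4.31%, and the CRE palindrome TGACGTCA in 4.94% and 2.03%. Among genes with a peak in all 5 lists the ETS core was in 6.67% of members and 11.5% of all genes, the opposite order, and CRE in 6.67% and 4.78%. These member shares rest on few genes, 5 of 81 for ETS and 4 of 81 for CRE, and 4 of 60 for each. The median number of CpG per window was 20 in the members' windows and 7 in all windows, and 21 and 24 among windows with a peak in all 5 lists.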

How the data were processed

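Single-cell RNA was measured in 1 control and 1 cKO library. The deposited UMI counts are unnormalized, from Cell Ranger 4 on mm10 per the file headers and the submitters' processing notes, and list every barcode. ATAC-seq peaks were called by the authors per library with MACS2; fold enrichment and −log10 p and q are the authors' deposited values, and only the position and the fold were used. H3K27me3 regions carry the authors' deposited signal (SEACR is named in the submitters' processing notes); only positions were used. Chromosome builds are given as mm10 per the labels, and RefSeq windows as GRCm38.p6.

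Barcodes with at least 3000 UMIs were kept. For each marker list the share of UMIs was divided by the median of the list's top 100 cells (20 for macrophages and endothelial cells). A class needed a score of at least 0.2, a lead of 1.5 times over the next list and 3 detected markers. These values were set on the markers after the files were seen, and no doublet caller was run. UMIs were summed per class and library and given as CPM, not divided by transcript length because each molecule gives 1 tag at its 3′ end. A gene needed 20 CPM in either class in both libraries, or, between genotypes, 20 CPM in either library and 50 UMIs in all. Stage changes were counted at 2-fold in both libraries and genotype differences at 1.5-fold, with no test, since each genotype has 1 library. Intervals cover counting error at the 95% level only. Free RNA was the sum of barcodes with 1 to 100 UMIs. Its largest share in a class was the share that accounts for all protamine and transition protein UMIs there, with the Leydig share used for spermatids. An overlap of 1 base counted as a peak over a window.

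The steps were tested on simulated data: 2.5-fold stage changes were recovered for 97.5% of genes in late spermatocytes against spermatogonia, and 2-fold genotype differences for 97.5% in spermatogonia, where 4.15% of unchanged genes also passed 1.5-fold. The changed genes were drawn only from levels well above the 20 CPM minimum, so the recovery does not cover genes near it. Counting noise was simulated, but neither free RNA nor mixing of classes. Named genes are the isoform pairs, the X-linked members, the 2 most abundant subunits of each complex, the 3 largest rises and falls to late spermatocytes, round and elongating spermatids, and the 3 highest and lowest genotype ratios over all cells. Some genes described lie outside these rules, Ndufa12 and Sdhc among them. Members and lists were chosen with earlier results of these data known. Bulk RNA-seq values were not used, because their transcript identifiers could not be paired with genes here. Python 3.11.15, numpy 2.4.6, scipy 1.17.1, pandas 2.3.3 and matplotlib 3.10.9 were used.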

Additional observations from a re-analysis of the deposited data

Results flagged for a closer look

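For 4 named genes the cKO library was above the control library in 1 germ-cell class and below it in another, with intervals on opposite sides of 0. The difference between classes was not tested. Atp5b had a log2 ratio of 0.24 in spermatogonia and -0.13 in elongating spermatids, and Sdhb 0.22 in round and -0.18 in elongating spermatids. Ndufa7 was at 0.43 in early spermatocytes and -0.09 in elongating spermatids. Ndufa13 was at 0.39 in early spermatocytes and -0.21 in round spermatids. The values in elongating spermatids depend on the scale: with median-ratio scaling the values there were 0.05 for Atp5b, 0.09 for Ndufa7 and -0.0019 for Sdhb, while Ndufa13 was still at -0.21 in round spermatids. In CPM the median of all genes in elongating spermatids was -0.06. The intervals cover counting error in 1 library of each genotype only.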

How the results depend on the processing

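No paired analysis was possible because each genotype has 1 library and no test was made. Over the alternatives, 229 of 382 values stayed within a set limit of the reported value, 151 moved and 2 reversed. The cause was not tested. The limit was 1.5-fold for a count of genes and a small fixed distance for a median ratio. Sums, their changes and shares counted as moved outside the reported counting interval, which is narrow in deep classes. Values are given control first, then cKO. With no minimum of level alone none of 8 values moved.

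Scaling by the median ratio changed the summed level by 0.57 and 0.50 (log2) to late spermatocytes and reversed it in elongating spermatids, to 0.42 and 0.32. It gave 19 genes higher in late spermatocytes, where 30.9% of all genes were. In round spermatids 22 were higher and 17 lower, where 47.4% and 29.2% of all genes were. In elongating spermatids 17 were higher and 23 lower, where 46.5% and 29.1% of all genes were. The X-linked sum changed by -2.69 and -2.56 to late spermatocytes. Between genotypes 4 genes were higher in spermatogonia and 4 in early spermatocytes (4.19% and 2.37% of all genes were), and the median in elongating spermatids was 0.18.

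Subtracting free RNA at 5% gave sums changed by -1.59 and -1.80 to elongating spermatids, an X-linked change of -3.25 and -3.06, and 3 genes higher in cKO early spermatocytes (2.53% of all genes were). Shares in late spermatocytes were 99.6% (99.63 in both) for Cox8c, 100% in both for Cox7b2 and 97.5% and 97.6% for Cox6b2. In spermatogonia they were 37.2% and 36.8% for Cox8c and 32.1% and 25.9% for Cox6b2.

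Subtracting it at the largest share, an alternative chosen after seeing the data, gave -2.62 and -2.52 to elongating spermatids and an X-linked change of -3.78 and -3.47. Genes higher in the cKO library numbered 9 in spermatogonia, 19 in early spermatocytes (1 lower), 1 in late spermatocytes, 12 in round and 21 in elongating spermatids (4.50%, 6.28%, 1.21%, 4.96% and 4.70% of all genes were), with medians of 0.31 in round and 0.59 in elongating spermatids. In each of these classes a larger share was taken off the control library, which itself shifts the ratio. Shares in late spermatocytes were 100% in both for Cox8c and Cox7b2 and 98.5% and 98.6% for Cox6b2. In spermatogonia they were 0 and 1.99% for Cox8c, 0 and 46.1% for Cox7b2 and 0 in both for Cox6b2.

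A lead ratio of 3 gave summed changes of 0.17 and 0.16 to late spermatocytes and -1.71 and -1.82 to elongating spermatids, an X-linked change of -3.70 and -3.51, and 17 genes lower in early spermatocytes (16.1% of all genes were). In the cKO library 2 genes were higher in spermatogonia, 9 in early spermatocytes and 6 in round spermatids (3.49%, 5.59% and 4.06% of all genes were). Shares in late spermatocytes were 99.5% in both for Cox8c, 97.6% in both for Cox6b2 and 99.98% in the control for Cox7b2. In spermatogonia they were 32.1% and 36.8% for Cox8c and 32.5% in the control for Cox6b2.

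The mean of per-cell shares gave 0.18 and 0.17 to late spermatocytes and -1.46 in the control to elongating spermatids. A minimum of 2000 UMIs gave 0.22 in the control to late spermatocytes, -1.46 and -1.66 to elongating spermatids and a control Cox8c share of 99.37%. A minimum of 5000 UMIs gave 0.24 to late and -1.52 to elongating spermatids in the control, 7 genes lower in early spermatocytes (17.6% of all genes were), 3 higher in cKO spermatogonia and 0 in cKO early spermatocytes (2.82% and 2.15% of all genes were), and a cKO Cox8c share of 37.5% in spermatogonia. With no minimum of UMIs and level, 3 genes were higher in cKO spermatogonia, 3 higher and 1 lower in early spermatocytes, and 1 higher each in round and elongating spermatids. Of all genes 7.13% were higher in spermatogonia, 34.3% higher and 12.5% lower in early spermatocytes, and 6.72% and 4.05% higher in the spermatids. That setting counts genes at the level of 3 UMIs, which is higher in the smaller cKO class of early spermatocytes. An upper limit of 3 times the median UMIs left 5 higher in cKO early spermatocytes (3.63% of all genes were).

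Depth limits the rare classes most: spermatogonia hold 192 and 167 cells, and the Cox7b level in cKO early spermatocytes rests on 2 UMIs.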

Other observations

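Other mitochondrial genes with a testis partner took different courses. Pdha1, the X-linked gene of pyruvate dehydrogenase, was at 14.2 and 9.61 CPM in control and cKO spermatogonia and at 0.14 and 0.08 CPM in late spermatocytes, while the autosomal Pdha2 was at 49.7 and 39.4 CPM and then at 259 and 252 CPM. Slc25a31, a germ-cell ADP/ATP carrier, was at 278 and 281 CPM in spermatogonia, 131 and 135 CPM in late spermatocytes and 13.3 and 12.97 CPM in round spermatids, and Slc25a4, its somatic relative, was at 34.1 and 26.9 CPM in spermatogonia and 439 and 412 CPM in Leydig cells.

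Among the regulators of mitochondrial biogenesis, Tfam, a packaging and transcription factor of mitochondrial DNA, was at 107 and 87.4 CPM in spermatogonia, 49.5 and 35.0 CPM in late spermatocytes, 245 and 163 CPM in round spermatids and 1158 and 1227 CPM in elongating spermatids. In those elongating spermatids the 13 RNAs from mitochondrial DNA summed to 4196 and 4081 CPM. Counts are per gene, so different transcripts of Tfam are not told apart. The genes of this section were named after their values were seen.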
